A study of Caenorhabditis elegans with 2 samples.

Results

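Of the 183241 peaks listed for the RNA-binding protein CAR-1 in Caenorhabditis elegans, 21942 lay on chromosome X inside an annotated gene locus. A peak counted when it was on chromosome X and shared at least 1 base with a locus of the gene expression table, and the rule used no measured value. Of these peaks, 8597 came from the list called in the CAR-1(FL) library and 13345 from the list called in the CAR-1(dSm) library. A further 2910 X peaks touched no locus and were left aside. The 144952 peaks inside loci of the 5 autosomes were the set for comparison.

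The study isolated RNA bound to CAR-1 by seCLIP-seq, a crosslinking and immunoprecipitation method with a single-end library, using GFP-trap beads. Each group was 1 library, from strain CZ25180 for CAR-1(FL) and from strain CZ26430 for CAR-1(dSm). The labels give no promoter, tissue, age, stage or treatment for either strain, and they do not spell out the names of the proteins. With 1 library per group there was no test between groups, and the intervals below cover counting error only.

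CAR-1 belongs to the Lsm14 family of proteins, which bind RNA through an Lsm-type Sm domain and sit in P bodies and germ granules, where translation is held back and mRNAs are decapped. The X chromosome of the worm is present as a pair in hermaphrodites, and the dosage compensation complex lowers its transcription in their somatic cells. It holds few genes of the germline and is rich in genes of neurons, muscle and other somatic tissues, so its transcripts sample the body more than the gonad.

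The lists compare the 2 libraries directly: each peak has a log2 fold of its own library over the other, turned here so that a negative value is more signal in CAR-1(dSm) and a positive one more in CAR-1(FL). No input library enters the values, so that more RNA, more cells of a type and more binding per RNA cannot be told apart. Read numbers are not in the files and were inferred. They are the whole numbers whose ratio gives the listed fold and whose Fisher or chi-square p comes within a tolerance of 0.003, as a share, of the listed -log10 p, and the kind of test is an assumption. The most frequent fold of the CAR-1(FL) list was taken as that of equal reads, so that the total behind CAR-1(dSm) was 1.36 times that of CAR-1(FL) and a CAR-1(dSm) read weighed less. With few reads a fold can take only certain values: equal reads give a log2 fold of 0.44, 2 CAR-1(dSm) reads for each CAR-1(FL) read give -0.56 and 3 for each give -1.14. Of the X peaks of the CAR-1(dSm) list, 5.55%, 7.52% and 7.06% lay exactly at these values, so that medians often coincide there. Locus tables carry no strand or exon, so a peak was given to a locus on either strand, and whether it lay in an exon or an intron was not analysed here.

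X peaks made up 12.1% of the in-locus peaks of the CAR-1(FL) list (95% exact binomial interval, 11.9 to 12.4) and 13.9% of those of the CAR-1(dSm) list (13.7 to 14.1). The CAR-1(dSm) list was thus 1.55 times as long as the CAR-1(FL) list on X and 1.33 times as long on the autosomes. No autosome reached the value of X, since their ratios ran from 1.30 on chromosome I to 1.37 on chromosome V. X peaks had a median width of 38 bases in both lists, against 40 on the autosomes. They lay more often in a single locus, with 9.64% of the CAR-1(FL) peaks and 9.01% of the CAR-1(dSm) peaks on X touching several loci, against 27.0% and 26.8% on the autosomes.

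X peaks tilted further towards CAR-1(dSm) than autosomal peaks in the CAR-1(dSm) list, and no such tilt was seen over the whole CAR-1(FL) list. In the CAR-1(dSm) list, 24.9% of X peaks had more signal in CAR-1(FL) (24.2 to 25.7), against 31.0% of autosomal peaks (30.7 to 31.3) and between 30.4% and 31.9% on single autosomes. Their median log2 fold was -0.56 on X and -0.35 on the autosomes, which is 1.47-fold and 1.28-fold more signal in CAR-1(dSm). The X median is the value of 2 reads for 1. In the CAR-1(FL) list, 52.4% of X peaks had more signal in CAR-1(FL) (51.3 to 53.4), inside the span of 48.6% to 54.8% over single autosomes, and the median log2 fold was 0.03 on X and on the autosomes alike.

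**Figure D1:**
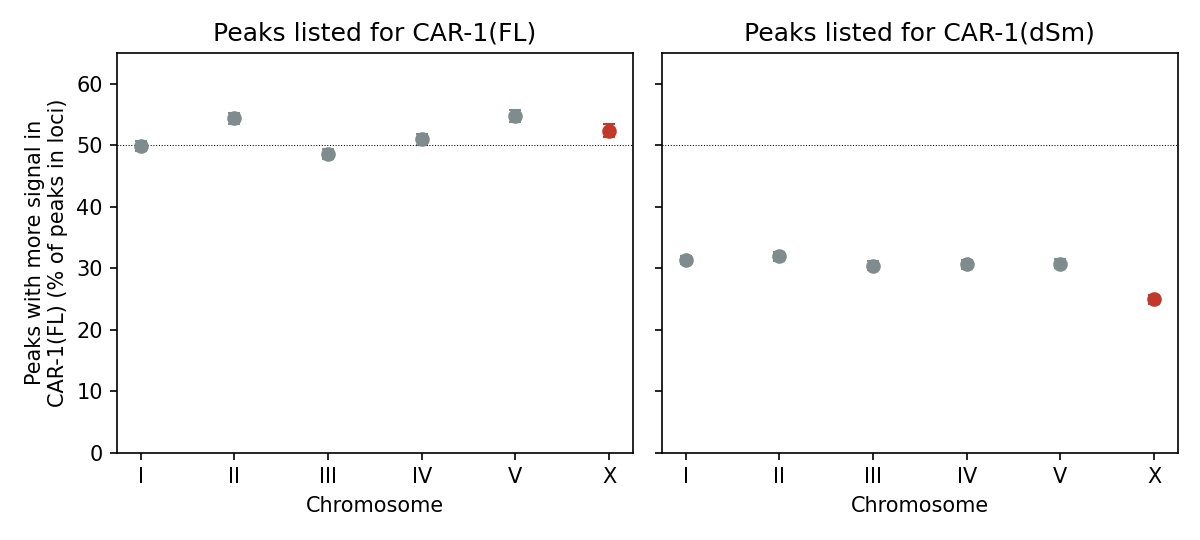
Share of in-locus peaks with more signal in CAR-1(FL), in percent, for each chromosome in the 2 lists. Points are shares, bars are 95% exact binomial intervals for counting error, and X is in red; in the CAR-1(dSm) list X stands at 24.9%, below all 5 autosomes, while in the CAR-1(FL) list it stands among them at 52.4%.

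Where a peak was present in both lists the tilt of X was small. Shared X peaks of the CAR-1(FL) list had more signal in CAR-1(FL) in 31.6% of cases, against 34.7% on the autosomes, whose single values reached down to 32.5%. Shared X peaks of the CAR-1(dSm) list gave 44.3%, against 46.2% and a lowest autosome of 44.6%. Peaks found in the CAR-1(dSm) list alone had a median log2 fold of -0.93 on X and -0.78 on the autosomes. Peaks found in the CAR-1(FL) list alone had medians of 0.77 and 0.73, while the share with more signal in CAR-1(FL) was 87.0% on X, below the 88.4% of the autosomes and the lowest autosome at 87.3%. In the CAR-1(dSm) list alone that share was 13.1% on the autosomes, and X minus autosomes was -2.09 percentage points.

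Fewer X peaks were shared to begin with. Of the X peaks in the CAR-1(FL) list, 62.5% met a same-strand peak of the other list by at least 1 base (61.5 to 63.5), against 68.8% on the autosomes and no autosome below 65.8%. Of the X peaks in the CAR-1(dSm) list, 41.6% did so (40.8 to 42.5), against 54.0% on the autosomes and no autosome below 50.3%. The gap between X and autosomes was wider in the CAR-1(dSm) list.

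X peaks also had fewer reads. In the CAR-1(dSm) list, the median X peak had 11 reads in its own library and 4 in CAR-1(FL), against 15 and 6 for the median autosomal peak. In the CAR-1(FL) list, the median X peak had 6 reads in its own library and 4 in CAR-1(dSm), against 8 and 6. These medians hold for peaks with a -log10 p of at least 0.1, where reads could be recovered, and so for peaks higher in their own library. Within classes of total reads, the CAR-1(dSm) peaks had a median log2 fold of -1.14, the value of 3 reads for 1, on X and autosomes up to 9 reads. From 10 to 19 reads the values were -1.02 on X and -0.93 on the autosomes, from 20 to 49 reads -0.92 and -0.75, and from 50 reads -0.60 and -0.56. The part of read number in the tilt of X was not tested beyond these classes.

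Peaks that stood out one by one were mostly higher in CAR-1(dSm). A peak was counted when its -log10 p, as the authors gave it, reached 3 and its signal was at least 2-fold higher in its own library. In the CAR-1(dSm) list 303 X peaks in 104 loci passed it, 2.27% of the X peaks (2.02 to 2.54), against 1.99% of that whole list and 1.90% of its autosomal peaks. Chromosomes II and IV stood at 2.25% and 2.22%, next to X. In the CAR-1(FL) list 11 X peaks in 5 loci passed, 0.128% (0.0639 to 0.229), against 0.224% of that whole list. The X share in that direction was lower than the 0.254% of the autosomes and above the 0.120% of chromosome I. The p-values compare reads of 2 libraries and say nothing of the strains beyond them.

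**Figure D2:**
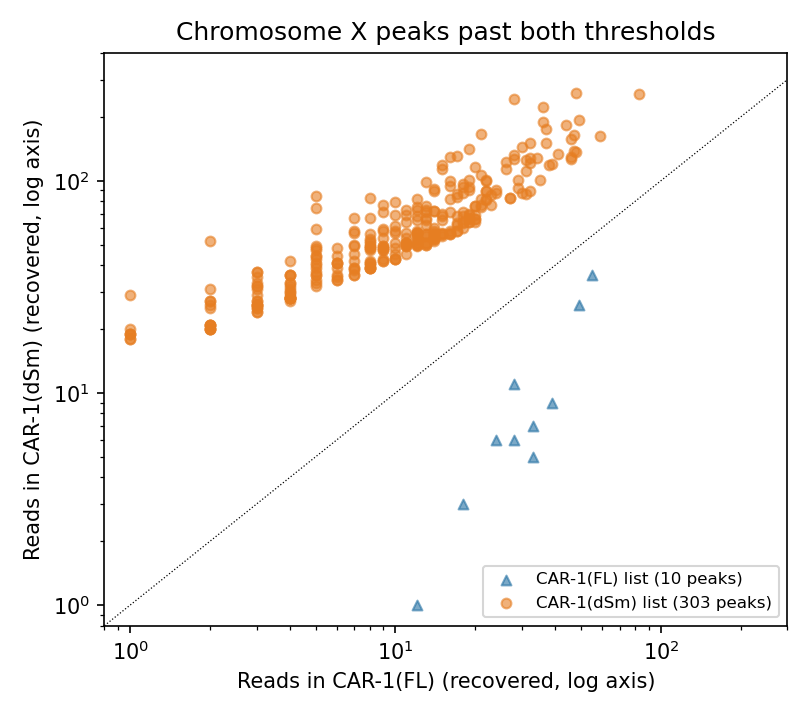
Reads recovered in CAR-1(FL), horizontal, and CAR-1(dSm), vertical, both on log axes, for X peaks past both thresholds; the dotted line marks equal reads. Circles are the 303 peaks of the CAR-1(dSm) list with a median of 56 reads against 11, and triangles are 10 of the 11 peaks of the CAR-1(FL) list with a median of 30.5 reads against 6.5, the other peak having no recoverable reads.

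The CAR-1(FL) peaks past the thresholds fell mainly in cuticle collagens, the structural proteins that the epidermis secretes to build the exoskeleton. Of the 11, 6 lay in col-176, a cuticle collagen. The one with the highest -log10 p, at chrX:10077674-10077724 in build ce10, had 33 reads in CAR-1(FL) against 5 in CAR-1(dSm), 8.98-fold after scaling. The most 3′ of them, at chrX:10078469-10078491, had 18 reads against 3. The whole gene leaned one way: all 12 of its listed peaks had more signal in CAR-1(FL), and its median log2 fold of 2.67 was the highest among X loci with 4 or more peaks. Its expression value was 8.90 FPKM in CAR-1(FL) against 1.37 FPKM in CAR-1(dSm), where FPKM scales fragments to gene length and library size.

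The collagen pseudogene col-182 had 12 reads against 1 at chrX:12636393-12636512, where a recovered 1 can stand for 0. The collagen col-167 had 28 against 11 at chrX:6324032-6324074, 3.46-fold. Another pair of peaks lay side by side in irld-23, a gene of the insulin and EGF receptor L domain family, with 49 reads against 26 and 55 against 36. The remaining peak, at chrX:6867946-6867977, lay over one end of C53B7.8, a small nucleolar RNA of 71 bases at chrX:6867898-6867968, and ran past it. Its signal was 2.68 times that of CAR-1(dSm), its -log10 p was at the list's ceiling of 400, and its reads could not be recovered. At 8-fold, 3 X peaks of this list were left, 0.0349% of its X peaks against 0.0167% of the whole list, and they lay in col-176 and col-182. At a -log10 p of 5, 5 X peaks of this list were left, 0.0582% of its X peaks against 0.124% of the whole list. In the CAR-1(dSm) list 105 were left, 0.787% against 0.776%, so that X stood near the whole list there.

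Of the 10 CAR-1(dSm) peaks with the highest -log10 p, 6 lay in neuronal genes, 3 in spc-1 and 1 in H05L03.3. The first was in flp-11, which encodes FMRFamide-like neuropeptides, at chrX:4677595-4677668, with 28 reads in CAR-1(FL) against 244 in CAR-1(dSm), 6.41-fold higher there. A second flp-11 peak had 15 reads against 119. Another neuropeptide gene, flp-28, had 21 reads against 166 at chrX:10087661-10087710, a peak that also lies within the larger locus W07E11.1. In cab-1, named for binding the synaptic regulator AEX-3, 3 peaks were among the 10 highest. They had 48 against 258 reads at chrX:12205384-12205396, 36 against 222 in the adjoining peak, and 16 against 129 near the other end of the locus.

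In spc-1, the gene of alpha spectrin, a cytoskeletal protein that lines the plasma membrane and supports axons, 3 peaks were among the 10 highest. They had 36 reads in CAR-1(FL) against 190 in CAR-1(dSm), 19 against 141 and 17 against 131. The remaining one was in H05L03.3, an unnamed protein-coding locus, with 37 reads in CAR-1(FL). In each of these 10 peaks the CAR-1(dSm) reads were at least 3.50-fold higher after scaling.

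A few genes held many of these peaks. The gene spc-1 held 36 of the 303, followed by lfi-1, named for an interaction with the spindle protein LIN-5, with 19 and cab-1 with 18. Without spc-1, 267 peaks were left, 2.01% of X peaks, close to the 1.90% of the autosomes. Next in number were the kinesin gene klp-4 with 12, F54G2.1 and H11E01.3 with 11 each, the presynaptic calcium channel gene unc-2 with 10, the Tribbles-like kinase gene nipi-3 with 8 and the heterochronic regulator lin-14 with 7. The 11 peaks in H11E01.3 also lay inside K03H6.8, a non-coding locus of 172163 bases.

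At 8-fold, 20 X peaks remained in the CAR-1(dSm) list, 0.150% of it on X against 0.119% of the whole list. The one with most reads, in H11E01.3, had 5 reads in CAR-1(FL) against 85 in CAR-1(dSm). In flp-12, a further FMRFamide-like peptide gene, the reads were 5 and 74, and in F41E7.7 they were 2 and 52. Others with few CAR-1(FL) reads lay in mec-7, the beta tubulin of touch receptor neurons, with 3 against 37, and in unc-18, which encodes a syntaxin-binding protein of synaptic vesicle release, with 3 against 35. Where CAR-1(FL) had 1 to 3 reads, the size of the fold cannot be fixed at this depth.

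X genes held slightly fewer peaks than autosomal genes. The difference was clearer at equal length, and was not seen throughout at equal implied fragments. Of 5467 X loci, 1980 (36.2%) had a listed peak, and among protein-coding loci 65.6% did, against 60.5% on the autosomes. Single autosomes ran from 45.6% on chromosome V to 76.3% on chromosome III. Loci with a peak held a median of 7 on X (quartiles 2 and 15) and 8 on the autosomes (3 and 16), and among loci with 4 or more the median was 12 on both. Single autosomes had medians from 6 on chromosome V to 10 on chromosomes I and III, so that X lay among them. X loci with a peak were longer, at a median of 2593 bases against 2023, so the peaks per kilobase differed more, with medians of 3.34 and 4.43. No single autosome was below 3.87 per kilobase. A peak counted for every locus it touched, and more autosomal than X peaks touched several. With each peak counted for its shortest locus the medians over all lengths were again 7 and 8. The length classes and the peaks per kilobase were not redone that way. Between 2001 and 4000 bases the medians were 7 on X and 10 on the autosomes, and between 4001 and 8000 bases 15 and 19. In loci of up to 500 bases both medians were 2. Protein-coding genes were also grouped by the fragments that the expression table implied. The medians were 9 peaks on X and 10 on the autosomes from over 2 to 5 fragments. They were 17.5 and 14 from over 10 to 20, and both 28 above 50. From over 10 to 20, X genes with a peak were longer, at a median of 3794 bases against 2633. Loci whose peaks came from the CAR-1(dSm) list alone were 21.3% on X and 15.7% on the autosomes, while those with CAR-1(FL) peaks alone were 5.25% and 4.81%.

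**Figure D3:**
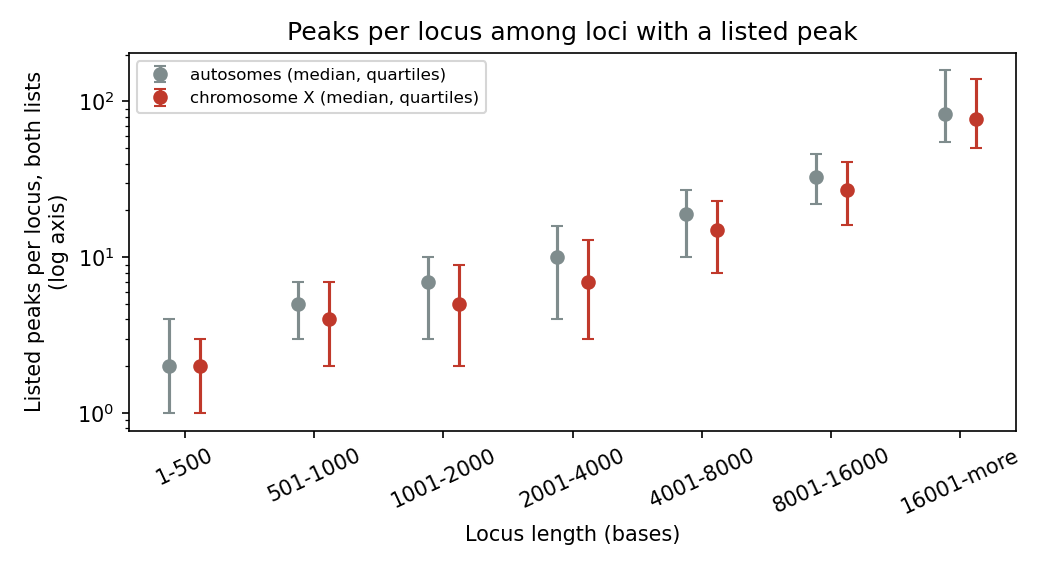
Listed peaks per locus over both lists, on a log axis, in classes of locus length in bases, for loci with at least 1 peak. A peak counts for every locus it touches, and more autosomal than X peaks touch several. Points are medians and bars run from the lower to the upper quartile; X, in red, lies below the autosomes in each class but the shortest, for example 7 against 10 peaks between 2001 and 4000 bases.

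The median number of peaks rose with locus length and, among protein-coding genes, with implied fragments. On X the latter went from 3 peaks at 0 fragments to 28 above 50. These fragments come from the same CAR-1 libraries and do not measure RNA level apart from binding. Nor are they read counts, since in some genes they lay far below the reads recovered in a single peak. With each peak counted for its shortest locus, him-4, which encodes the extracellular matrix protein hemicentin, came first on X with 150 peaks. The numbers that follow count every peak that touches the locus, in the CAR-1(FL) list first. By that count him-4 held 81 and 84 over 35944 bases. The yolk protein gene vit-2 held 55 and 72 in only 5036 bases, with 124 FPKM in CAR-1(FL) against 138 FPKM in CAR-1(dSm). The calcium channel gene unc-2, long and at 0.161 and 0.715 FPKM, held 42 and 79. The filamin gene fln-2 held 55 and 60, the type IV collagen gene let-2 held 40 and 46, and the nuclear receptor gene nhr-27, a locus of 108017 bases, held 89 and 114, of which 117 in all had no shorter locus. These genes differed in direction. The median log2 folds were 0.22 in him-4, 0.09 in fln-2 and 0.16 in let-2, genes of the extracellular matrix and the cytoskeleton, against -0.29 in vit-2 and -1.43 in unc-2. Also among the 10 with most peaks were lfi-1 at -1.05, W07E11.1 at -0.90, the transcription factor gene sma-9 at -0.85, F39C12.1 at -0.36 and nhr-27 at -0.26.

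With 1 value per gene, taken over the same peaks of both lists pooled, X genes lay further towards CAR-1(dSm). The longer CAR-1(dSm) list on X enters these values. From the CAR-1(FL) list alone the medians were 0.03 on X and 0.05 on the autosomes, and from the CAR-1(dSm) list alone -0.56 and -0.29. Over 1326 X loci with at least 4 peaks and at most 100000 bases, the median of the genes' median log2 folds was -0.26 (interval of the median -0.29 to -0.22), against -0.13 over 8274 autosomal loci (-0.14 to -0.11) and between -0.14 and -0.09 on single autosomes. CAR-1(FL) was higher in 32.1% of X genes and 39.5% of autosomal ones. The quartiles were -0.66 and 0.10 on X and -0.41 and 0.17 on the autosomes. At -1 or below were 195 X genes (14.7%), against 6.96% of autosomal genes, while 15 X genes (1.13%) were at 1 or above, against 1.68%. In genes with 16 or more peaks the medians were -0.29 and -0.16, in those with 8 to 15 peaks -0.24 and -0.08, and in those with 4 to 7 peaks -0.21 and -0.06.

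**Figure D4:**
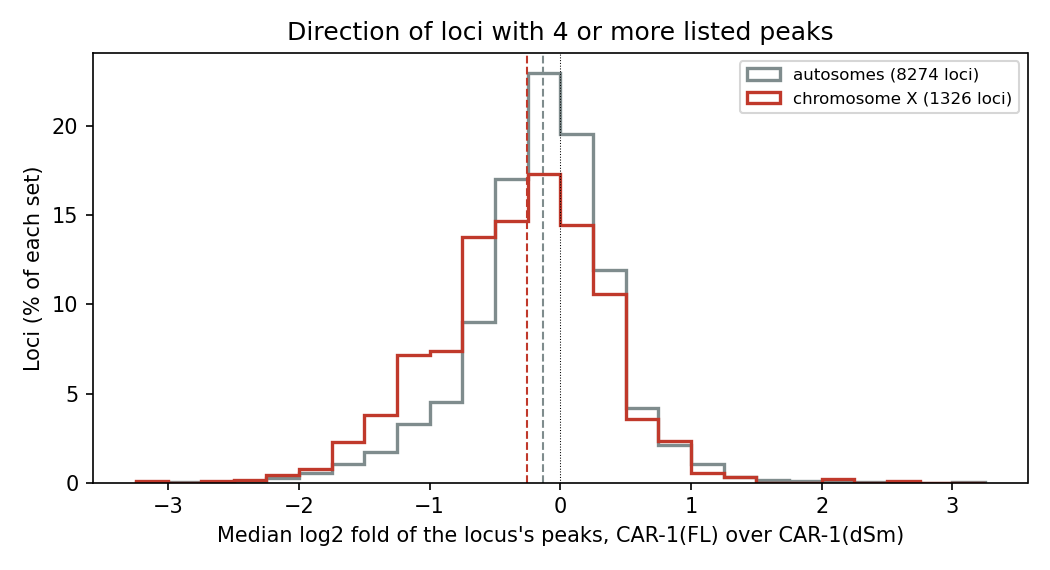
Distribution of the median log2 fold of each locus, positive towards CAR-1(FL), as percent of the 1326 X loci (red) and the 8274 autosomal loci (grey) with 4 or more peaks; dashed lines mark the medians of -0.26 and -0.13. The X curve lies further to the left, with 14.7% against 6.96% of loci at -1 or below and 32.1% against 39.5% above 0.

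The order of X and autosomes held in every class of implied fragments but the highest. These classes are not classes of read number, since implied fragments can lie far below the recovered reads of a gene. Among protein-coding genes grouped by the fragments that the expression table implied, X lay lower in each class up to 50 fragments, for instance -0.26 against -0.09 from over 2 to 5 fragments and -0.29 against -0.14 from over 20 to 50. Across these classes the X medians took no steady course. They were -0.32 at 0 fragments, -0.16 from over 5 to 10 and -0.29 from over 20 to 50. Above 50 fragments the order turned, with -0.14 over 67 X genes and -0.20 over 599 autosomal genes. The X genes with most fragments, yolk protein, actin and collagen genes among them, thus did not lie below the autosomal ones.

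Among genes with 8 or more peaks, neuropeptide genes filled most of the low end. The lowest median was that of flp-11 at -2.51, from 5 peaks in the CAR-1(FL) list and 6 in the CAR-1(dSm) list, followed by flp-12 at -2.41, the neuropeptide-like gene nlp-14 at -2.07, flp-5 at -1.94 and flp-3 at -1.93. Then came F56F10.2 and cat-1, the vesicular monoamine transporter gene, both at -1.88, and H05L03.3 at -1.80. At the high end col-176 stood alone at 2.67. The next values were 1.10 in T01H10.8 and 1.03 in F38B6.4, then 0.94 in F55F3.2, 0.92 in F18E9.3 and irld-23, 0.91 in H03E18.1 and 0.89 in lgc-21, a gene of the ligand-gated channel family. Apart from col-176 and H03E18.1, these had at most 8 implied fragments. For irld-23 the implied number was 0 in both libraries, although 1 of its peaks had 49 recovered reads in CAR-1(FL). This gap was not limited to irld-23. A single flp-11 peak had 244 recovered reads in CAR-1(dSm), where the gene had 4.93 implied fragments. A single H05L03.3 peak had 37 in CAR-1(FL), where the gene had 1 implied fragment. Both kinds of number are inferred, and implied fragments cannot be read as read counts.

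The gene lists grouped the X loci by role, and the nervous system lists lay lowest. All 16 X neuropeptide genes with 4 or more peaks had a negative median fold. The list median was -1.90, against -0.26 over all X loci and -1.29 over 47 autosomal neuropeptide genes. With 8 or more peaks the medians were close, at -1.93 over 8 X neuropeptide genes and -1.90 on the autosomes. Of the 25 on X, 21 had a peak, and 15 held a peak past the thresholds, all higher in CAR-1(dSm). Over all 1980 X loci with a peak, 5.25% held one past the thresholds in that direction and 0.253% in the other. Their peaks numbered 45 in the CAR-1(FL) list and 96 in the CAR-1(dSm) list. The gene with most peaks, flp-18, had 7 and 11 and a median of -1.39, and flp-19 was the lowest X locus with 4 peaks, at -3.12. By expression value these genes rested on few implied fragments: flp-11 had an FPKM of 8.46 in CAR-1(dSm), on 4.93 implied fragments, and is listed at 0 in the other library. Few implied fragments do not show few reads, since 1 flp-11 peak had 244 recovered reads in CAR-1(dSm). Of 15 at 1 FPKM or more in either library, 11 were higher in CAR-1(dSm) by at least 1 in log2(FPKM + 1). The 1 higher in CAR-1(FL) by as much was flp-3, with 1.04 FPKM there and 0 in CAR-1(dSm).

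All 33 synaptic and neuronal genes on X with 4 or more peaks also lay below 0, with a median of -0.97 against -0.92 for 59 autosomal members. They held 242 peaks in the CAR-1(FL) list and 540 in the CAR-1(dSm) list, and 10 of the 36 with a peak held one past the thresholds, against 5.25% of X loci. The values ran from -1.69 in cab-1 to -0.06 in rig-3, a neural immunoglobulin protein. The GABA-B receptor gene gbb-1 had 19 and 31 peaks and a median of -1.38, and unc-10, which encodes the active zone protein RIM, had 15 and 30 and a median of -1.02. Of the 37 X loci in this list, 4 reached 1 FPKM in either library.

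Innexins, which form gap junctions in invertebrates, lay apart from their autosomal relatives. All 6 X innexins were below 0 with a median of -1.07, against 0.21 over 14 autosomal innexins. The lowest were the neuronal members unc-7 at -1.49 and unc-9 at -1.32 together with inx-1 at -1.32, which had 22 and 23 peaks. The other 3 were inx-3 at -0.81, inx-2 at -0.29 and inx-5 at -0.17, on 4 to 6 peaks each. Both unc-7 and unc-9 are also in the neuronal list.

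The axon guidance and regeneration list was lower in CAR-1(FL) for 9 of its 12 X members, with a median of -0.58 against -0.62 on the autosomes. Within it, spc-1 stood at -1.33 with 32 and 50 peaks, the netrin gene unc-6 at -1.14 and the actin-binding protein gene unc-115 at -1.05. The guidance receptor gene sax-3, the worm Robo, stood at -0.79, and svh-2, a receptor tyrosine kinase of axon regeneration, at -0.47. On the other side, egl-15, the FGF receptor gene, had 13 and 10 peaks and a median of 0.44. Of the 12, spc-1 and unc-115 held a peak past the thresholds, against 5.25% of X loci.

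The mRNA decay and granule list also takes in RNA-binding proteins of other roles, mbl-1 and fox-1 among them. It held 7 X genes, 6 of them below 0, with a median of -0.85 against -0.25 on the autosomes. They included the muscleblind splicing factor gene mbl-1 at -1.12, the microRNA Argonaute gene alg-1 with 12 and 21 peaks, and the poly(A)-binding protein gene pab-2 at -0.95 with 11 and 20. The GW182-family gene ain-1, a partner of the Argonautes, stood at -0.23, and fox-1, an RNA-binding protein gene that also counts X chromosomes, was the exception at 0.17. Of these, alg-1, pab-2 and mbl-1 held peaks past the thresholds, 1, 2 and 1, all higher in CAR-1(dSm), which is 3 of 7 genes against 5.25% of X loci.

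Genes of the body wall lay the other way. Of 19 X cuticle collagens with 4 or more peaks, 16 had more signal in CAR-1(FL), with a median of 0.44, the value of equal reads, on X and on the autosomes. Their values ran from -0.15 in col-184 to 2.67 in col-176, and the adult collagen col-19 stood at 0.16 with 7 and 6 peaks. By expression value, 16 of all 31 X collagen loci were measured at 1 FPKM or more, with a median difference of 0.56 on the log2(FPKM + 1) scale. In col-169 the values were 21.5 FPKM in CAR-1(FL) against 12.2 FPKM in CAR-1(dSm), and in col-181 they were 48.0 and 53.4.

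Muscle genes leaned the same way but less. Of 15 on X, 12 had more signal in CAR-1(FL), with a median of 0.15 against 0.12 on the autosomes. The troponin genes tni-1 at 0.83, tnt-2 at 0.58, mup-2 at 0.46 and tnt-3 at 0.44 were the highest. The pharyngeal myosin gene myo-2, with 25 and 33 peaks, stood at -0.22, and act-4, an actin gene at 124 and 106 FPKM, at -0.14. None of the 15 muscle genes held a peak past the thresholds, which is near the 5.25% and 0.253% of all X loci.

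Intestinal and yolk genes stayed near the middle, with a median of -0.17 over 17 X genes, 12 of them below 0, against -0.07 on the autosomes. The vitellogenin genes differed among themselves. They ran from -0.29 in vit-2 and -0.18 in vit-5 through -0.06 in vit-1 to 0.36 in both vit-3 and vit-4. The genes vit-3 and vit-4, like vit-5, are near-identical in parts of their sequence, so reads may be shared between them. The intestinal master regulator elt-2 had 1 and 4 peaks and a median of -0.56. Basement membrane genes had a median of -0.36 over 8 members against 0.14 on the autosomes, with let-2, him-4 and the laminin gene lam-2 above 0 and the collagen receptor genes ddr-1 and ddr-2 at -0.92 and -1.25.

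Regulators of sex and dosage include X-linked genes whose products tell the embryo how many X chromosomes it has. Of 6 with enough peaks, 5 were below 0, with a median of -0.36 against -0.04 on the autosomes. The gene sdc-2, which brings the dosage compensation complex to X, had 16 and 20 peaks and a median of -0.09, and sdc-1 stood at -0.36. The X signal genes sex-1 and ceh-39 stood at -0.88 and -0.35. Of 37 X transcription factors, 30 were below 0, with a median of -0.36 against -0.23. In this list lin-14 had 40 and 39 peaks and -0.56, the steroid receptor gene daf-12 had 34 and 30 peaks and 0.06, and the epidermal GATA factor gene elt-3 stood at 0.44.

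The remaining lists were thin on X. Respiratory chain and ATP synthase genes had a median of -0.22 over 6 members, lowest in gas-1, a complex I subunit, at -0.65. The 2 X ribosomal protein genes, rpl-11.2 and rpl-25.1, stood at -0.42 and -0.43, and the V-ATPase genes vha-15 and vha-12 at -0.31 and -0.38. The germline list had only 2 X members, meg-1 at 0.12 and meg-2 at -0.06, both granule proteins of the early germline. Of 72 X microRNA loci, 3 had a listed peak, in all 3 peaks. The 1145 X loci in none of the lists had a median of -0.23.

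**Figure D5:**
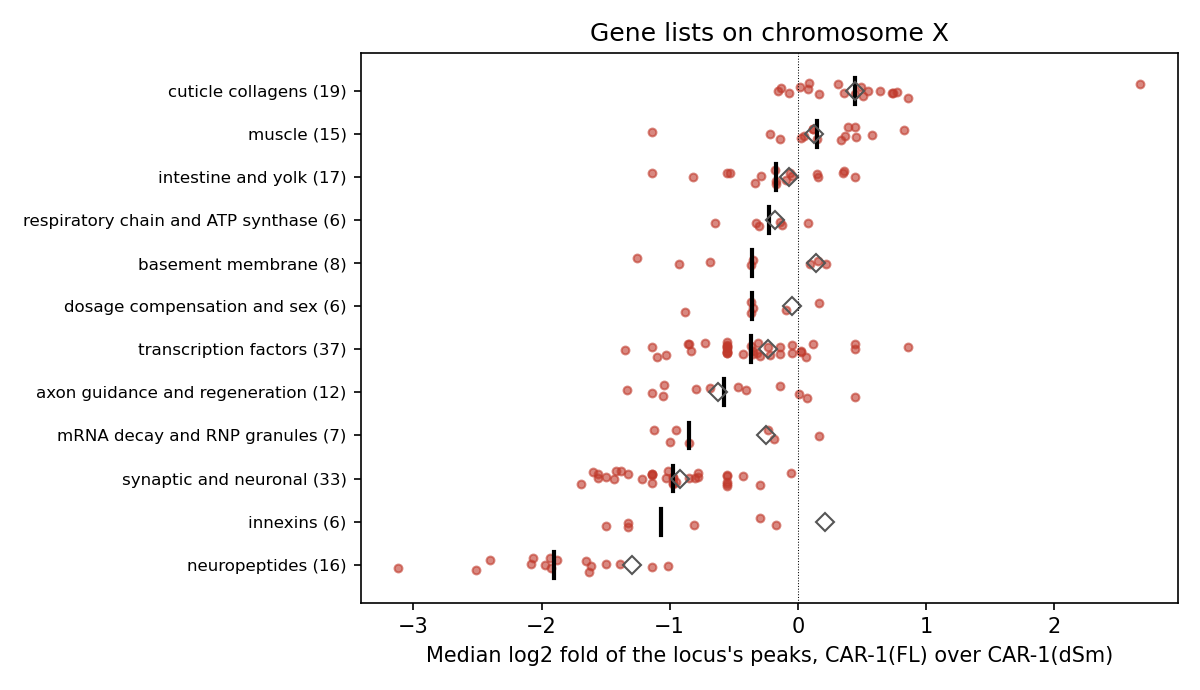
Each X locus with 4 or more peaks, placed by its median log2 fold (positive towards CAR-1(FL)), for lists with at least 6 such loci (number in brackets). Dots are loci, black bars the list median on X, open diamonds the median of the list's autosomal loci; neuropeptides, at -1.90, lie farthest towards CAR-1(dSm) and cuticle collagens, at 0.44, towards CAR-1(FL).

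The tilt of X was nearly as large without the nervous system lists. Leaving out the neuropeptide, synaptic, axon and innexin lists on all chromosomes gave gene medians of -0.23 on X and -0.12 on the autosomes, and 26.2% and 31.7% of CAR-1(dSm) peaks higher in CAR-1(FL). The thresholds behaved otherwise. Without those lists 178 of the 303 X peaks remained, 1.42% of X peaks against 1.35% of autosomal ones. These lists were left out after their values had been seen. They are short: 1261 of the 1326 X loci stayed, and any neuronal gene outside the lists stayed with them. The part of neuronal genes in the tilt was therefore not tested.

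The markers named for 4 tissues were all detected on X. All 7 neuronal markers had a peak, with gene medians from -1.43 in unc-2 to -0.42 in nlg-1. Their summed level was 3.11 FPKM in CAR-1(FL) against 3.55 FPKM in CAR-1(dSm), on 13.2 and 24.4 implied fragments, and mec-2 is listed at 0 in both. The higher sum in CAR-1(dSm) rests on unc-2, at 0.161 and 0.715 FPKM. Both unc-18, at 1.83 and 1.64 FPKM, and unc-10, at 0.305 and 0.180 FPKM, were higher in CAR-1(FL). In ncam-1, mec-7 and nlg-1 CAR-1(dSm) was higher by less than in unc-2. The 7 muscle markers ran from -0.22 to 0.46 and summed to 171 against 150.5 FPKM. The 6 intestinal markers ran from -0.56 to 0.36 and summed to 105.8 against 101.9 FPKM, which turned to 229.9 against 240.3 FPKM with vit-2 added. The 4 epidermal markers, col-176 among them, ran from -0.07 to 2.67 and summed to 10.5 against 2.47 FPKM, of which col-176 gave 8.90 and 1.37 and the other three 1.58 and 1.10. No muscle, intestinal or epidermal marker is listed at 0. No germline marker on X had been chosen. The amount of each tissue in the 2 preparations was not measured here, and its part in these values was not tested.

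The expression table, made from the same libraries without the peak lists, gave a narrower difference. Over 527 X genes with 1 FPKM or more in either library, the median difference of log2(FPKM + 1), CAR-1(FL) minus CAR-1(dSm), was 0.00, against 0.08 over 3854 autosomal genes. From 5 FPKM the order turned, with 0.062 over 221 X genes and 0.032 on the autosomes. On X 115 genes (21.8%) were higher in CAR-1(FL) by at least 1 on that scale and 134 (25.4%) lower by as much, against 14.3% and 15.3% of all genes measured. Of the 115, 86 are listed at 0 in CAR-1(dSm), and of the 134, 109 are listed at 0 in CAR-1(FL). Over 140 X genes with 20 or more implied fragments the median was -0.01, against 0.05 over 1562 autosomal genes. Of these X genes, 1 (0.714%) passed that size towards CAR-1(FL) and 6 (4.29%) towards CAR-1(dSm). On the autosomes 2.88% and 3.39% did so, and on chromosome V 4.42% and 4.76%. X genes gave 15.4% of the protein-coding fragments in each library.

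The 1 gene higher in CAR-1(FL) was col-176, described above. Smaller differences followed in mek-1, a MAP kinase kinase gene, with 5.17 FPKM in CAR-1(FL), 2.46 times the other library, H42K12.3 with 2.11 and 0.602, and lpr-3, a lipocalin-related gene of the apical matrix, with 2.51 and 0.936. After these came col-169, cyn-8, col-170 and fipr-21, with differences from 0.78 down to 0.69 on the log2(FPKM + 1) scale. In mek-1 the peaks did not follow, with a median log2 fold of -0.67.

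The genes higher in CAR-1(dSm) included pfk-1.1, a phosphofructokinase of glycolysis, with 0.470 FPKM in CAR-1(FL) against 2.41 FPKM in CAR-1(dSm), and its 29 peaks had a median of -0.67. The neighbouring genes ZK813.7 and ZK813.3 had 4.08 against 11.3 FPKM and 4.05 against 10.1 FPKM. The carbonic anhydrase gene cah-3 had 1.35 and 3.96 FPKM with a peak median of -0.83. In Y62H9A.6, with 3.72 and 8.32 FPKM, the peaks did not follow, with a median log2 fold of 0.01 over 10 peaks. In lin-14, with a difference of -0.93 on the log2(FPKM + 1) scale, the values were 1.28 and 3.32 FPKM. The non-coding locus F25F6.3 spans 200019 bases and overlaps other genes, and Y39B6A.81 is listed at several places on X and holds no peak, so their differences of -1.87 and -1.91 are uncertain.

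In the authors' deposited table, 35 of 379 X genes with a test had a p-value under 0.05, 29 of them higher in CAR-1(dSm) and 6 lower. On the autosomes the authors' deposited table had 134 of 2898, 80 higher in CAR-1(dSm) and 54 lower. The shares were 9.23% and 4.62%. No gene on either had a q-value under 0.05 in the authors' deposited table, where the lowest on X was 0.419.

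Along the gene, X peaks gathered towards the 3′ end in both libraries. Among peaks in exactly 1 locus of 500 to 100000 bases, the last of 5 equal parts, counted from the 5′ end by the strand of the peak, held 27.9% of X peaks in the CAR-1(FL) list and 27.6% in the CAR-1(dSm) list, against 25.9% and 26.4% on the autosomes. The first part held 18.4% and 18.3% on X against 22.3% and 21.3% on the autosomes. The direction of X peaks in the CAR-1(dSm) list had a median log2 fold of -0.56, the value of 2 reads for 1, in each of the 5 parts, which does not exclude smaller differences between them. On the autosomes it ran from -0.28 in the first part to -0.40 in the last. The share of CAR-1(dSm) X peaks past the thresholds was 1.34% in the first part and 2.52% in the last, while on the autosomes it was 1.46% and 2.81%.

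Along the chromosome the direction varied little. In bins of 3 megabases, between 23.3% and 27.7% of CAR-1(dSm) peaks were higher in CAR-1(FL), and the median log2 fold was at the step of -0.56 in all 6 bins. Peaks past the thresholds were not spread so evenly, with 114 of the 303 in the second bin, which holds spc-1, lfi-1 and klp-4, and 58 in the first. The other bins held 28 to 41.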

How the data were processed

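The 2 libraries, 1 per group, were analysed from deposited files only. UMI-tools, cutadapt, STAR and SAMtools and build ce10 are named in the submitters' processing notes, without versions or roles; no source used here names the peak caller. Each deposited peak carries the authors' −log10 p-value and their log2 fold of its library over the other. The authors' Cufflinks and Cuffdiff tables, per the file headers, give FPKM with limits and p-values and q-values. Peaks were assigned to loci by an overlap of at least 1 base with Python 3.11.15, pandas 2.3.3 and scipy 1.17.1, and loci of one name on a chromosome were merged. Reads were recovered from fold and p within a tolerance of 0.003, and fragments were implied from the FPKM limits. FPKM differences used a pseudocount of 1. Biotypes came from RefSeq, matched for 5371 of 5467 X names. The steps were tested on simulated data. Named genes were the 10 highest −log10 p per direction, the 10 loci with most peaks, the 8 highest and 8 lowest medians with 8 or more peaks, the 8 largest FPKM differences per direction with 20 or more fragments, and examples per list by number of peaks; the genes with most peaks past the thresholds, other list extremes and the 8-fold CAR-1(dSm) peaks were picked after their values were seen. Members and lists were chosen with earlier results of these data known.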

Additional observations from a re-analysis of the deposited data

How the results depend on the processing

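No paired analysis was possible because each group is 1 library, and for the same reason no replicate could be left out. Of the alternatives tried, 78 values stayed within their counting interval or within 1.5 times of the count, and the others moved, 3 of them with a change of sign. X minus autosomes in the share of CAR-1(dSm) peaks higher in CAR-1(FL) was -6.10 percentage points. Among peaks shared with the other list it was -1.86 points, with -0.038 in median log2 fold, and in the CAR-1(FL) list it changed sign from 0.88 to -3.11 points, with -0.059. At a -log10 p of at least 1 the share difference was 0, since these peaks all lie on one side by construction, and the CAR-1(FL) medians differed by 0.28. Without the nervous system lists the CAR-1(dSm) medians differed by -0.23. With both lists merged to regions X held 14.2% of them, and the medians differed by -0.14. With peaks in exactly 1 locus X held 14.6% of the CAR-1(FL) and 16.7% of the CAR-1(dSm) list.

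Counts of X peaks past the thresholds were 3 and 20 at 8-fold and 5 and 105 at a -log10 p of 5, and 178 without the nervous system lists. In loci with 4 or more peaks the median was 12 on X and on the autosomes, against 7 and 8 without that cut. The cut is made on the peak number itself, so equal medians after it do not show that the difference ended. X minus autosomes in gene medians was -0.12, with -0.024 in the CAR-1(FL) list alone and -0.26 in the CAR-1(dSm) list alone. Over protein-coding genes with over 20 implied fragments it was -0.055, and over the 67 X genes with over 50 it changed sign to 0.058. The cause was not tested. The FPKM difference, X minus autosomes, changed sign from -0.082 to 0.030 at 5 FPKM and more. Overlap by 50% of the peak left 52.1% and 33.0% of X peaks shared. With a pseudocount of 0.1 the neuropeptide FPKM difference was -3.98, against -1.32 with 1. The alternatives without the nervous system lists or spc-1, over protein-coding genes, by fragments and with other markers were chosen after seeing the data. The few reads per X peak limit all values of single peaks.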
